A study of Mus musculus with 2 samples.

Results

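Non-cycling osteoclast (OC) precursors were examined in single-cell mRNA sequencing (scRNA-Seq) of bone marrow-derived monocytes (BMDMs) placed in OC-inducing culture. They were defined as cells with at least 3 unique molecular identifiers (UMIs, each standing for 1 captured mRNA molecule) over Ctsk, Mmp9 and Dcstamp, at most 2 UMIs over the proliferation genes Mki67, Top2a, Aurka and Cdk1, and less than 5% of UMIs from S100a8 and S100a9. This rule found 377 of 11932 kept cells, 296 of 6269 in the control library and 81 of 5663 in the mutant library. A kept cell had at least 500 detected genes and at most 10% mitochondrial UMIs. The control library carries only the label control for its genotype, and which alleles those cells had was not stated. The mutant library came from LysM-Cre;Arid1a fl/fl cells. In these mice the lysozyme gene Lyz2 drives Cre recombinase, which cuts a floxed stretch out of Arid1a in myeloid cells, so cells of other types in the culture keep the gene. Arid1a encodes a BAF subunit, and BAF complexes remodel chromatin. Both cultures were grown from femoral marrow of mice and received M-CSF at 50 ng/ml with RANKL at 100 ng/ml, and the cells were collected early after RANKL. Each genotype was represented by 1 library. No difference between the libraries therefore has a replicate check, and all intervals are 95% intervals for counting error alone. The libraries held 164004706 and 131800059 UMIs in 6455 and 5865 barcodes, of which 8 were shared, and kept cells had a median of 23978 and 21734 UMIs.

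OCs are multinucleated bone-resorbing cells that arise when monocytes or macrophages receive M-CSF and RANKL. RANK signalling induces the transcription factor NFATc1, which switches on genes for cell fusion and for acid and protease secretion, while macrophage factors such as Irf8 oppose it. Precursors of this kind normally stop dividing before they fuse, and type I interferon restrains the process.

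The cells were chosen by their UMIs of the genes of the rule, which are given as a description and not as a result. Ctsk encodes cathepsin K, the collagen-degrading protease of OCs, Mmp9 a matrix metalloproteinase and Dcstamp a membrane protein needed for fusion. The precursors of the control library held 4317 UMIs of these genes, with a median of 5.5 and a range of 3 to 242 per cell. Those of the mutant library held 617, with a median of 5 and a range of 3 to 93. Which gene brought a cell over the threshold differed between the libraries. Mmp9 was detected in 81.4% of control precursors and in 21.0% of mutant precursors, whereas Ctsk was detected in 61.5% and 86.4% and Dcstamp in 34.8% and 28.4%. Ctsk was the only detected gene of the rule in 39 control precursors (13.2%) and in 50 mutant precursors (61.7%). Mmp9 was the only one in 73 control precursors (24.7%) and in 1 mutant precursor. All 3 genes were found together in 50 control (16.9%, 12.8 to 21.7) and 4 mutant precursors (4.94%, 1.36 to 12.2). The mutant precursors were thus mostly cells with Ctsk and without detected Mmp9, so the same rule picked cells of different makeup.

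**Figure D1:**
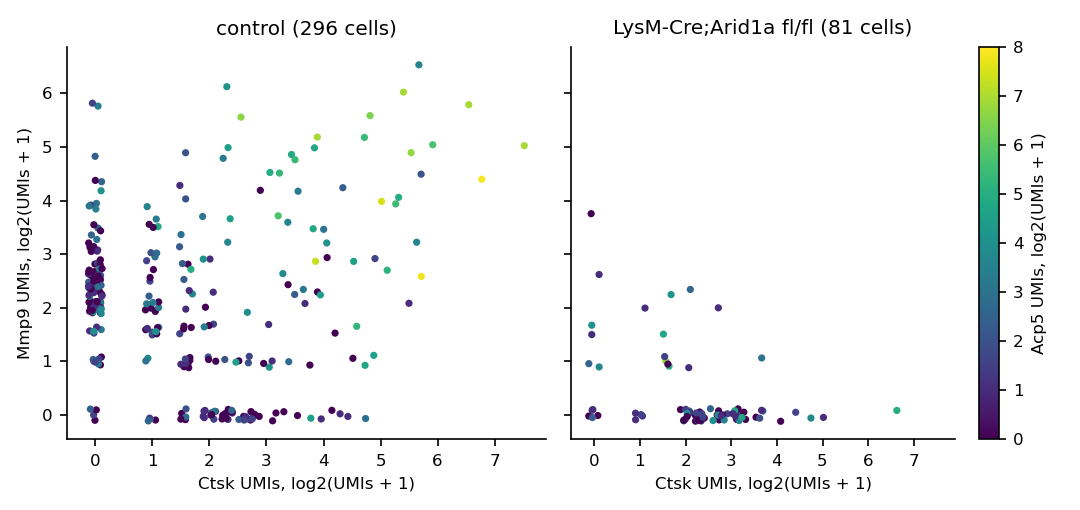
UMIs of Ctsk (x axis) and Mmp9 (y axis) in each non-cycling OC precursor, as log2(UMIs + 1) with a small random offset to separate points, for the 296 control and the 81 mutant cells, coloured by Acp5 UMIs on the same scale. Control cells spread along both axes and reach high Acp5 where both genes are high, while most mutant cells lie at 0 Mmp9 UMIs.

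Several promoters are shown because the genes turn up in the results below as an OC pair and an interferon pair. Each sequence is the 250 bases before an annotated start, written 5′ to 3′ on the strand of the gene (RefSeq, GRCm38.p6, not the build of the counts), with capitals at the letters of a motif on either strand. The motifs searched were GAGGAA for PU.1, TGGAAA for NFAT, TGANTCA for AP-1 and GAAANNGAAA for the interferon-stimulated response element (ISRE).
Ctsk (chr3:95498960-95499209, plus): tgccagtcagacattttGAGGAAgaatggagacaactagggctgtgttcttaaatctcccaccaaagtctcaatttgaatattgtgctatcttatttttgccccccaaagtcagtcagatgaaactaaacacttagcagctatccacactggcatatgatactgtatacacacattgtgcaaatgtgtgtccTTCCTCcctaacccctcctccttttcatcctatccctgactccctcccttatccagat
Acp5, the third listed start (chr9:22130599-22130848, minus): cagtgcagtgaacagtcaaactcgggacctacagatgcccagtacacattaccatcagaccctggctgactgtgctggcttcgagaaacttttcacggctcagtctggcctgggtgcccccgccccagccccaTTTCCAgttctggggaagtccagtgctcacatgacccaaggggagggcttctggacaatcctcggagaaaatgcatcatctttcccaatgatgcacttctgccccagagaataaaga
Isg15 (chr4:156200819-156201068, minus): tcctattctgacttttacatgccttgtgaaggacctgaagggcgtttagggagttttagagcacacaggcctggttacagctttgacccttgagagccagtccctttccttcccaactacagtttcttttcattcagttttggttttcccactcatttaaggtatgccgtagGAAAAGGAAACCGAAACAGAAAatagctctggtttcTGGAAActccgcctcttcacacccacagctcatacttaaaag
Gbp2 (chr3:142620413-142620662, plus): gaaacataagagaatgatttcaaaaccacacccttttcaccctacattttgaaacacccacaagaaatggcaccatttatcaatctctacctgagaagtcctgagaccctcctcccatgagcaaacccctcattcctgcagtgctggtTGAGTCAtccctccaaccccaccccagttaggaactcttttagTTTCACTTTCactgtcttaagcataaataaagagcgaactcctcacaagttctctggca
Ctsk holds 2 PU.1 matches, 1 on each strand. The Acp5 window holds 1 NFAT match, and the windows of its 2 other listed starts hold none of the 4 motifs. Isg15 holds 3 ISRE matches that overlap in 1 run and 1 NFAT match. Gbp2 holds 1 ISRE and 1 AP-1 match. Over all 32851 promoters of the table, 18.6% held the NFAT letters, 6.75% those of AP-1, 23.3% those of PU.1 and 2.98% those of the ISRE. A match describes the letters and is not a measured binding site. Mmp9, Dcstamp and Atp6v0d2 had no entry.

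The label was checked against OC genes outside the rule, with the other non-cycling cells of the same library (1517 control and 2150 mutant) as the comparison. In both libraries the precursors carried more of several OC genes, among them Acp5, Jdp2 and Nfatc1, and less of the complement C1q genes than these cells. The wider lists were mixed. Of 11 resorption genes over 20 CPM, 6 were higher and 3 lower in the precursors of both libraries (median log2 ratios 0.32 and 0.30), the lower ones being Ctsa, Ctsb and Lamp1 of the lysosome. Of 8 fusion and adhesion genes 3 were higher and 4 lower in both (medians -0.03 and -0.08), and of 15 OC transcription factors 6 were higher and 2 lower in both (medians 0.26 and -0.08). Over all 4515 genes that averaged 20 CPM or more, the medians were 0.05 and -0.04. Levels are UMIs summed over the cells and scaled to CPM, the usual unit of counts per 1e6 UMIs. They compare a gene between cell groups, not genes with each other. Because the groups were cut from the same counts, the ratios describe the cells and are no test. Acp5 (ENSMUSG00000001348, chromosome 9 from 22038023 to 22049355, minus strand, GRCm39), which encodes tartrate-resistant acid phosphatase (TRAP), stood at 404 CPM (390 to 419) in control precursors against 21.4 CPM in the other cells. In the mutant library it stood at 253 CPM (231 to 276) against 62.6 CPM. The log2 ratio of precursors over other cells was thus 4.24 (4.11 to 4.37) in the control library and 2.02 (1.87 to 2.16) in the mutant library. Atp6v0d2, an OC subunit of the proton pump V-ATPase that is also needed for fusion, gave log2 ratios of 3.05 and 1.99. Jdp2, a basic leucine zipper factor of OC differentiation, gave 2.28 and 1.61. Nfatc1, the master transcription factor of the lineage, gave 2.53 (2.39 to 2.67) and 0.96 (0.65 to 1.26). Car2, the carbonic anhydrase that supplies protons for resorption, gave 4.80 and 4.26, and Ocstamp, another fusion protein, gave 3.74 and 2.87. Itgb3, the integrin of mature OCs, had 5 UMIs in control and 1 in mutant precursors, and the calcitonin receptor gene Calcr had 0 in both.

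**Figure D2:**
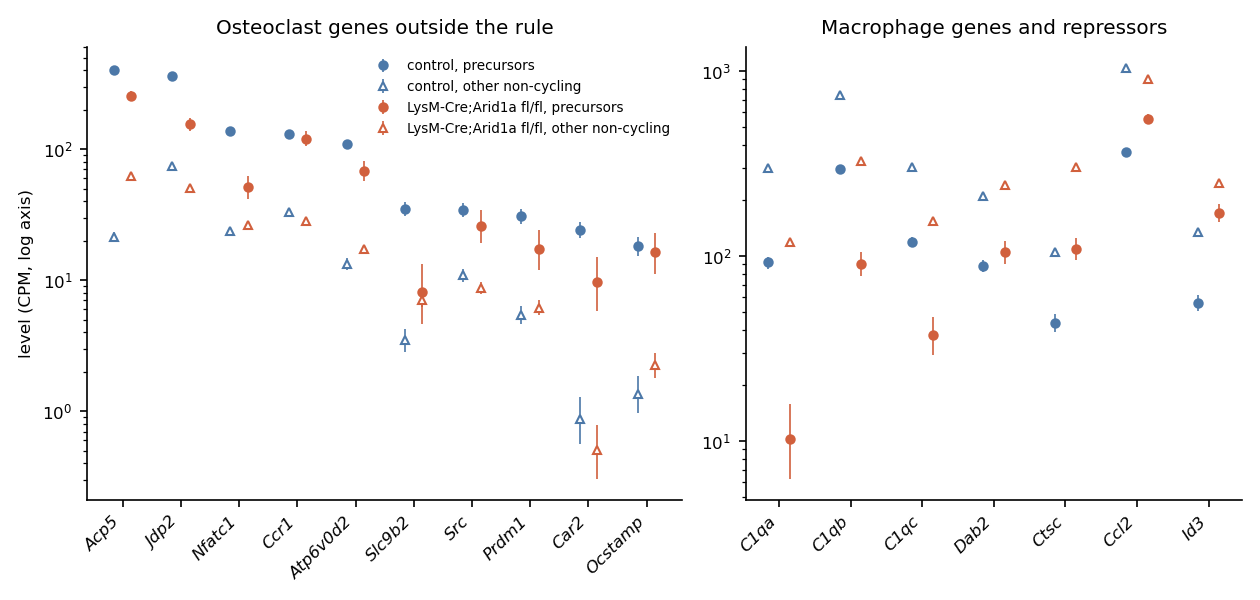
Level in CPM (log axis) of OC genes outside the rule and of macrophage genes and repressors of OC differentiation, in precursors (filled circles) and other non-cycling cells (open triangles) of each library, with 95% Poisson intervals. Acp5 is at 404 and 253 CPM in the control and mutant precursors, and C1qa at 92.2 and 10.2 CPM.

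Among 4515 genes that averaged 20 CPM or more in each library, 10 (0.221%) were at least 2-fold higher in precursors than in other non-cycling cells of both libraries, and 8 (0.177%) at least 2-fold lower. The higher genes were Acp5, Atp6v0d2, Jdp2, the chemokine receptor Ccr1, the growth factor gene Pgf, Fgfr1, Fam102a, Serpinb6b, Wwc1 and the interferon-related Ifit1bl1. Ccr1 was alike in the libraries, with log2 ratios of 1.97 and 2.10. Ifit1bl1 rested on few cells, since 1 cell held 96.8% of its 282 UMIs in control precursors. The lower genes were C1qa, C1qb and C1qc (complement C1q of macrophages), Ctsc, Cd81, the endocytic adaptor Dab2, Itgb5 and the chemokine gene Cxcl14. C1qa gave log2 ratios of -1.70 (-1.81 to -1.59) in the control and -3.54 (-4.26 to -2.92) in the mutant library. Other ratios were unlike in the libraries. Bdh2, a dehydrogenase gene, gave 2.55 in the control library and 0.24 in the mutant, and Slc9b2, a sodium-proton exchanger induced in OCs, gave 3.32 and 0.21. Emp2, a membrane protein gene, gave 0.84 and 3.1, and its level in other mutant cells was only 4.65 CPM against 71.1 CPM in other control cells.

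The cells most like the precursors were those that met the same OC threshold with 3 or more proliferation UMIs, 962 in the control library and 176 in the mutant. Several OC genes differed little between them and the non-cycling precursors, with log2 ratios between -0.42 and 0.32 for Acp5, Jdp2, Prdm1, Src and Car2 in both libraries. Acp5 was 0.25 (0.19 to 0.31) higher in the non-cycling cells of the control library and 0.12 lower in those of the mutant library, where the interval of the log2 ratio ran from -0.26 to 0.03. Nfatc1 gave log2 ratios of 0.17 (0.07 to 0.27) and -0.53 (-0.86 to -0.22). Atp6v0d2 was higher in the non-cycling cells of both libraries, by 0.37 and 0.74. Ccl5, a chemokine gene, was higher in non-cycling than in cycling cells over the threshold, with log2 ratios of 1.89 and 3.16, but 1 control precursor held 301 of its 511 UMIs there.

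Non-cycling precursors made up 4.72% (4.21 to 5.28) of kept control cells and 1.43% (1.14 to 1.77) of kept mutant cells, a difference of -3.29 percentage points (-3.92 to -2.67). The other cells over the OC threshold differed in the same direction, with 15.3% of control and 3.11% of mutant cells. Among all cells over the threshold, the non-cycling ones made up 23.5% (21.2 to 26.0) in the control and 31.5% (25.9 to 37.6) in the mutant library. Counts of UMIs depend on depth, so each cell was also thinned to 5000 UMIs, a depth that 168 control and 351 mutant cells did not reach. The share was then 3.59% in the control library and 0.527% in the mutant. At 5000 UMIs the limit of 2 proliferation UMIs passes many cycling cells, and only 100 of the 219 control and 15 of the 28 mutant cells so found were precursors by all their UMIs. With the proliferation genes read from all UMIs, an alternative chosen after seeing the data, the shares were 1.64% and 0.282%. Among cells over the threshold, the non-cycling part at 5000 UMIs was 59.2% of control and 53.8% of mutant cells. That is a difference of -5.34 points (-20.6 to 9.52). With proliferation read from all UMIs it was 27.0% and 28.8%, a difference of 1.82 points (-10.9 to 16.7). Both intervals include no difference, while at full depth the difference was 7.99 points (1.85 to 14.5). The difference in the share of kept cells varied with the genes of the rule. Without Mmp9 it was smaller and kept its direction, as given below. With Acp5 added to the 3 genes it turned round, to 6.09% of control and 7.21% of mutant cells. Acp5 was also higher in the other non-cycling cells of the mutant library (62.6 CPM) than in those of the control library (21.4 CPM). The part of this in the turn was not tested.

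**Figure D3:**
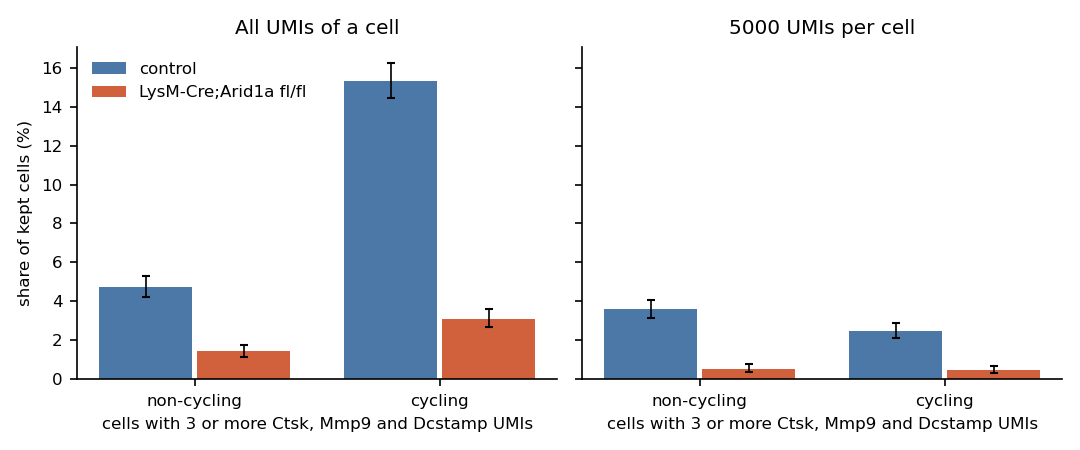
Share of kept cells with at least 3 UMIs of Ctsk, Mmp9 and Dcstamp, split into non-cycling and cycling cells, for all UMIs of a cell (left) and for 5000 UMIs per cell (right), with 95% Clopper-Pearson intervals. The non-cycling share is 4.72% and 1.43% on the left and 3.59% and 0.527% on the right.

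The signal of the rule was set against free RNA in droplets. Cells with 5% or more S100a8 and S100a9 UMIs, which carry neutrophil genes and should lack Ctsk and Dcstamp, numbered 16 in the control library and 83 in the mutant. None of them had 3 or more UMIs of Ctsk and Dcstamp, which allows a share of up to 18.8% and 3.61% at 3 counts of the total, with exact Clopper-Pearson intervals that reach 20.6% and 4.35%. Their summed level was 0 and 2.17 CPM at a median depth of 6885.5 and 9433 UMIs, against 306 and 291 CPM in the precursors at 23318.5 and 22664 UMIs. The limits of 18.8% and 3.61% lie above the precursor shares of 4.72% and 1.43%, and these cells were shallower. The count of cells therefore cannot decide on free RNA. Mmp9 was left out of this check because neutrophils express it.

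Cells just below the threshold, with 2 UMIs over the 3 genes, numbered 107 in the control library and 62 in the mutant, and cells with exactly 3 UMIs numbered 64 and 18. In the control library Acp5 stood at 37.6 CPM at 2 UMIs and at 97.2 CPM at 3, and Nfatc1 at 24.3 and 79.1 CPM. In the mutant library Acp5 stood at 119 and 135 CPM, and Nfatc1 at 26.0 and 24.0 CPM. The interval of the Acp5 level in mutant cells just outside the threshold (102 to 138 CPM) thus overlapped that of control cells just inside it (82.1 to 114 CPM).

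The targeted gene was then compared between the precursors of the 2 libraries. Arid1a (ENSMUSG00000007880, chromosome 4 from 133406304 to 133484080, minus strand, GRCm39) stood at 39.2 CPM (34.9 to 43.9, 296 UMIs in 181 of 296 cells) in control and at 18.9 CPM (13.3 to 26.0, 37 UMIs in 31 of 81 cells) in mutant precursors. The log2 ratio was -1.05 (-1.59 to -0.56), beside -1.29 in the other non-cycling cells. Only the 3′ end of transcripts is read, so any transcript of a cut allele that retains this end adds to the count. With precursors chosen at 5000 UMIs the log2 ratio was -0.10. That choice found 28 mutant cells, of which 15 were precursors by all their UMIs. In the UMIs of these cells that the thinning left out, the ratio was -0.19 (-0.90 to 0.44), from 22 mutant UMIs.

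Between the libraries, the precursors differed most in interferon-stimulated genes, which were higher in the mutant, and in C1qa and Marco, which were lower. Of 4925 genes that averaged 20 CPM or more, 367 (7.45%) were at least 2-fold higher and 154 (3.13%) at least 2-fold lower in mutant precursors, and the median log2 ratio over all of them was -0.04. The shares of 7.45% and 3.13% are the background for the counts of listed genes below. In the other non-cycling cells, 234 of 4934 were at least 2-fold higher and 41 at least 2-fold lower. The higher genes were thus 70.4% of those past 2-fold in the precursors. With mitochondrial and ribosomal protein genes left out of the totals this was 49.1%, because the median over all genes moved to -0.20, and with no proliferation UMI allowed it was 54.7%. Mitochondrially encoded genes had a median log2 ratio of -1.07 in the precursors and -0.52 in the same genes of the other cells, and ribosomal protein genes -0.51 and -0.34. The median mitochondrial share per precursor was 2.23% in the control library and 1.2% in the mutant, and its part in the ratios was not tested.

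Genes of acid and protease secretion had no common direction between the libraries. Of 15 resorption genes, 13 passed 20 CPM, with 3 at least 2-fold higher and 1 at least 2-fold lower in mutant precursors, and their median log2 ratio was 0.30, beside 0.37 in the other cells. On the lower side, Acp5 gave -0.68 (-0.82 to -0.54), Atp6v0d2 -0.69 (-0.96 to -0.42), and Slc9b2 -2.09 (-2.92 to -1.37), with 263 UMIs in control and 16 in mutant precursors. Car2 gave -1.32 (-2.09 to -0.64). These ratios pool all precursors, and their values at like numbers of UMIs of the rule genes are given below. On the higher side, Ctsl and Ctsb, which encode cathepsins L and B, gave 1.11 and 0.86, and Ostm1 and Plekhm1, which serve lysosomal acidification and trafficking, gave 1.06 and 1.01. Ctsa, another lysosomal enzyme gene, gave -0.11 (-0.26 to 0.03). Of the 26 V-ATPase genes listed, 17 passed 20 CPM with a median of -0.02. In the other non-cycling cells the log2 ratio was positive for Acp5 (1.55), Atp6v0d2 (0.37) and Slc9b2 (1.01) and negative for Car2 (-0.79).

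The pooled Acp5 level hid a dependence on how far a cell had gone over the threshold. In the control library 54 of the 296 precursors (18.2%) had 20 or more UMIs over the 3 genes, and these held 2294 of the 3053 Acp5 UMIs. In the mutant library 4 of the 81 (4.94%) did, with 45 of the 496 Acp5 UMIs. Precursors were therefore compared at a like number of UMIs over the 3 genes, a split chosen after seeing the data. At 5 to 9 UMIs (86 control and 33 mutant cells, median depth 22228 and 23014 UMIs) Acp5 stood at 90.7 CPM (78.4 to 104) in the control and at 252 CPM (218 to 288) in the mutant library, a log2 ratio of 1.47 (1.18 to 1.76). It was 1.49 with the cell highest in Acp5 left out of each library. At 3 to 4 UMIs (115 and 37 cells, median depth 23182 and 22664 UMIs) Acp5 stood at 93.8 and 260 CPM, again a log2 ratio of 1.47, but 1 mutant cell held 110 of the 231 UMIs and without the highest cells the ratio was 0.67 (0.35 to 0.99). Atp6v0d2 was likewise on the higher side in the mutant at these steps, with 1.27 (0.76 to 1.78) at 3 to 4 UMIs and 1.31 (0.76 to 1.87) at 5 to 9 UMIs, which became 0.73 and 1.01 without the highest cells. The pooled levels of Acp5 and Atp6v0d2 were thus lower in mutant precursors while both were on the higher side in the cells with 3 to 9 UMIs, which made up most of them. These UMIs were mostly Ctsk in the mutant library and largely Mmp9 in the control library, so a like number of them does not stand for a like stage, and the part of this in the ratios was not tested. With every cell weighted alike the pooled Acp5 ratio was -0.04. At 10 to 19 UMIs the log2 ratio was -2.04 (-2.90 to -1.30) for Acp5 and -2.57 (-4.21 to -1.31) for Atp6v0d2, on the lower side. At 20 or more UMIs it was -0.80 (-1.26 to -0.37) for Acp5 and -0.24 (-1.06 to 0.47) for Atp6v0d2. The control cells at this step held 141 of the 183 Car2 and 192 of the 263 Slc9b2 UMIs of control precursors. The ratios there were -2.26 for Car2 and -2.71 for Slc9b2. At 3 to 4 UMIs Car2 was on the higher side, at 2.68 (1.28 to 4.23) from 7 control and 14 mutant UMIs. Without the highest cells it was 2.18. At 5 to 9 UMIs it was -0.07 (-2.17 to 1.69). Slc9b2 gave 0.78 at 3 to 4 and -0.19 at 5 to 9 UMIs, with intervals that include no difference. The 10 to 19 and 20 or more steps held 7 and 4 mutant cells, too few to read an order from.

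**Figure D4:**
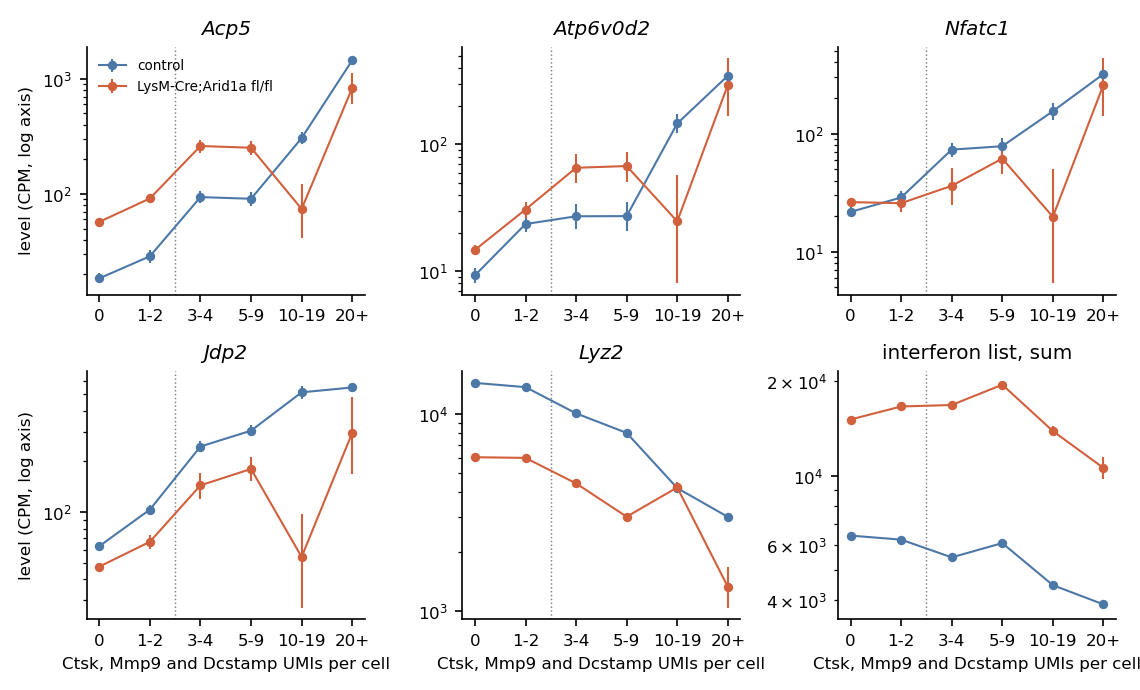
Level in CPM (log axis, 95% Poisson intervals) of 5 genes and of the summed interferon list in non-cycling cells split by their UMIs of Ctsk, Mmp9 and Dcstamp, for the control and mutant libraries. The dotted line marks the threshold of 3 UMIs, and the 2 rightmost mutant points hold 7 and 4 cells. At 5 to 9 UMIs Acp5 is at 90.7 CPM in control and 252 CPM in mutant cells, while Jdp2 is at 304 and 180 CPM.

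Most OC transcription factors were on the lower side in mutant precursors, Nfatc1 and Jdp2 lowest among those over 20 CPM. Of 18 genes, 16 passed 20 CPM, with 12 lower and 4 higher, 3 of them at least 2-fold lower and none at least 2-fold higher. Their median log2 ratio was -0.21 in the precursors and 0.18 for the same genes in the other cells. Over all 4925 genes that averaged 20 CPM or more, 3.13% were at least 2-fold lower and 7.45% at least 2-fold higher. The median log2 ratio over all of these genes was -0.04. Nfatc1 stood at 137 CPM (129 to 145, detected in 203 of 296 cells) in control and at 51.0 CPM (41.5 to 62.1, detected in 34 of 81 cells) in mutant precursors, a log2 ratio of -1.42 (-1.73 to -1.13). In the other non-cycling cells it stood at 23.7 and 26.2 CPM, a log2 ratio of 0.14 (0.0011 to 0.29). At 3 to 4 UMIs over the 3 genes of the rule the Nfatc1 ratio was -1.02 (-1.60 to -0.48), and at 5 to 9 UMIs it was -0.35 (-0.83 to 0.12), an interval that includes no difference, or -0.88 (-1.48 to -0.32) without the highest cell of each library. The direction of Nfatc1 in cells over the threshold was not stable once cells were thinned, since the ratio was -0.47 at 5000 UMIs, another draw gave 0.086 and thinning to 2000 UMIs gave 0.21. Jdp2 stood at 361 CPM (347 to 375) and at 154 CPM (137 to 173), a log2 ratio of -1.23 (-1.40 to -1.05), and its ratio was -0.76 at both 3 to 4 and 5 to 9 UMIs. Jdp2 was on the lower side in the other cells too, at -0.56. Prdm1, which encodes the repressor Blimp1 that silences macrophage genes in OCs, gave -0.83 (-1.39 to -0.31), Fosl2, an AP-1 subunit, gave -0.98, Myc -1.01 and Ppargc1b, a coactivator of mitochondrial genes in OCs that was below 20 CPM, -1.71 (-2.57 to -0.95). Spi1, which encodes PU.1, and Fos were close to even at 0.12 and 0.27.

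Receptors and signalling genes upstream of NFATc1 differed little. Of 20 RANK signalling genes, 13 passed 20 CPM, with 11 higher, 2 lower and none past 2-fold. Their median log2 ratio was 0.26, beside 0.43 in the other cells and -0.04 over all genes in the precursors. With mitochondrial and ribosomal protein genes left out of the totals it was -0.0055, beside -0.20 over all genes. Tnfrsf11a, which encodes RANK, stood at 95 CPM in control and 105 CPM in mutant precursors, a log2 ratio of 0.15 (-0.08 to 0.37). Csf1r, the M-CSF receptor gene, gave 0.26 (0.13 to 0.39). Tyrobp and Fcer1g, the adaptors of costimulatory receptors, gave 0.64 and 0.92. Fusion and adhesion genes had a median of 0.31 over 10 genes. Without mitochondrial and ribosomal protein genes in the totals it was 0.081, again beside -0.20 over all genes. In cells with 5 or more UMIs of the rule genes it was 0.13. Cd47, a ligand in macrophage fusion, was at 1.05 and Ocstamp at -0.15 (-0.75 to 0.41).

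Factors that oppose OC differentiation were lower in precursors than in other non-cycling cells of both libraries. All 6 repressors that passed 20 CPM were below the other cells in both, with median log2 ratios of -0.92 in the control library and -0.45 in the mutant. Over all 4515 genes the medians were 0.05 and -0.04. Between the libraries, 5 of the 6 repressors were higher in mutant precursors and 3 of them at least 2-fold, with a median of 0.86 beside 0.52 in the other cells. Over all 4925 genes 7.45% were at least 2-fold higher, and the median was -0.04. Id3, an inhibitor of basic helix-loop-helix factors, stood at 55.8 and 170 CPM, a log2 ratio of 1.61 (1.40 to 1.82).

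Macrophage genes were mixed. Of the 14 that passed 20 CPM in the comparison between libraries, 10 were higher and 4 lower in mutant precursors, with a median log2 ratio of 0.62. C1qa, C1qb and C1qc gave -3.17, -1.70 and -1.68, and C1qa was found in 79 of 296 control and 8 of 81 mutant precursors. Adgre1, which encodes F4/80, gave 1.56, Fcgr1, the high-affinity IgG receptor gene, 2.72 and Apoe 2.61. Lyz2, the lysozyme gene whose locus drives the Cre, gave -0.95 (-0.99 to -0.92), beside -1.23 in the other cells. Within the control library Lyz2 was lower at each step of the 3 rule genes, from 14367 CPM at 0 UMIs to 3008 CPM at 20 or more UMIs.

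Interferon-stimulated genes were higher in mutant precursors without exception. All 31 genes of the list passed 20 CPM, all were higher and 27 were at least 2-fold higher, with a median log2 ratio of 2.35 beside 1.60 for the same genes in the other non-cycling cells. Their summed level was 5186 CPM (5135 to 5238) in control and 17467 CPM (17282 to 17653) in mutant precursors. Isg15, a ubiquitin-like antiviral protein gene, stood at 240 CPM (229 to 252) and 1453 CPM (1400 to 1507), a log2 ratio of 2.60 (2.51 to 2.68), beside 1.82 in the other cells. Gbp2, a guanylate-binding GTPase gene, stood at 17.3 and 182 CPM, a log2 ratio of 3.39 (3.1 to 3.69), with 58.8% of its control UMIs in 1 cell. Irf7, the transcription factor that amplifies the response, gave 3.24 and Rsad2, which encodes viperin, 3.07. Irf9, another interferon regulatory factor gene, was the lowest of the list at 0.77 (0.42 to 1.10), and Ly6a was the highest at 4.93 (4.78 to 5.09). The summed list was between 1.45 and 1.68 higher on the log2 scale at each of the 4 steps of the rule genes over the threshold. The highest steps, 10 to 19 and 20 or more UMIs, held only 7 and 4 mutant cells. Of the 22 list genes with a RefSeq promoter, 11 (50%) held the ISRE letters printed above for Isg15 and Gbp2, beside 3.46% of all 27025 genes. The ISRE letters were also in 3 of 12 resorption genes, 1 of 11 OC transcription factors and 0 of 8 fusion genes. The interferon list held the AP-1 letters in 31.8%, those of PU.1 in 40.9% and those of NFAT in 27.3%. Over all genes these shares were 7.82%, 25.9% and 20.9%.

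The difference in the interferon list was present in nearly every cell. At 5000 UMIs per cell, control precursors held a median of 24 UMIs of these genes, with a lowest of 2 and a highest of 270, and mutant precursors a median of 77, with a lowest of 25 and a highest of 389. Of 292 control precursors, 2 reached the mutant median, and 0 of 80 mutant precursors were at or below the control median. Ly6a was at 0 in 86.0% (81.4 to 89.7) of control and 27.5% (18.1 to 38.6) of mutant precursors at that depth. In the other non-cycling cells the medians were 28 and 72 UMIs of the list, with a lowest of 2 in each library.

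OC genes were spread unevenly over single cells. Of Acp5, Nfatc1, Atp6v0d2 and Jdp2, all outside the rule, at least 3 were detected at 5000 UMIs in 80 of 292 control precursors (27.4%, 22.4 to 32.9) and in 6 of 80 mutant precursors (7.5%, 2.80 to 15.6). In the other non-cycling cells this was 1.37% and 0.745%. None of the 4 was detected in 24.7% of control and 40% of mutant precursors. Taken one by one, Acp5 was detected in 41.4% (35.7 to 47.3) and 38.8% (28.1 to 50.3), whereas Nfatc1 was detected in 35.3% (29.8 to 41.1) and 13.8% (7.07 to 23.3), and Jdp2 in 62.7% and 30%. The share of precursors with Acp5 was therefore alike in the libraries, and that with Nfatc1 or Jdp2 was not. A single mutant precursor held 93 UMIs of the rule genes, of which 90 were Ctsk. It accounted for 15.1% of all such UMIs of the mutant precursors, and without it the log2 ratio of Nfatc1 was -1.59 and that of Acp5 -0.75.

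**Figure D5:**
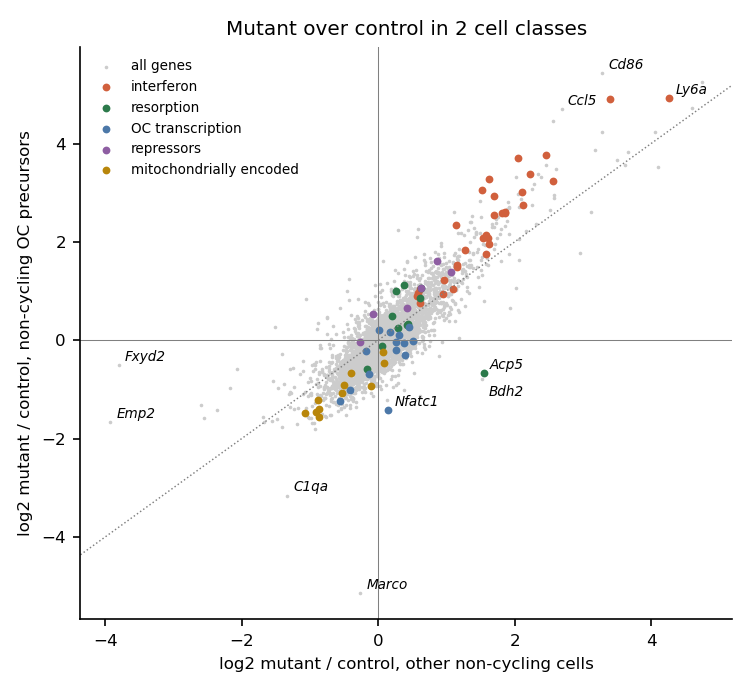
Log2 ratio of mutant over control in non-cycling OC precursors (y axis) against that in other non-cycling cells (x axis), for genes that averaged 20 CPM or more in each of these cell groups, with 5 gene lists coloured and a dotted line of equal ratios. Interferon genes lie above 0 on both axes, with Ly6a at 4.93 and 4.27, while Acp5 (-0.68 and 1.55) and Nfatc1 (-1.42 and 0.14) lie below the line.

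Chemokine and cytokine genes over 20 CPM were on the higher side in mutant precursors. All 9 that passed had a positive log2 ratio, with a median of 1.62 beside 0.07 for the same genes in the other cells. The count and the median are partly set by the filter, since a gene could pass through the mutant library alone. With the filter at 5 CPM the median was lower, as given below. One of the 9, Ccl7, was at 0.26 and turned to -0.66 without the highest cell of each library, -0.073 with every cell weighted alike and -0.81 with no proliferation UMI allowed. Ccl4 gave 2.53, Cxcl2 2.40 and Il1rn, the interleukin-1 receptor antagonist gene, 1.82. Ccl5 stood at 67.7 and 1767 CPM, but it was found in 15 of 296 control and 26 of 81 mutant cells, and 1 cell held 58.9% and 30.7% of its UMIs. Ccl2 stood at 365 and 549 CPM, and Ccl7 at 105 and 126 CPM, where 1 mutant cell held 53.7% of the UMIs.

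The following ranks are partly set by the filter, since a gene needed 20 CPM only as its mean over the libraries and could pass through the library where it was high. The highest log2 ratios were those of Cd86, a costimulatory ligand of antigen-presenting cells, at 5.51 (14 and 166 UMIs), Ly6i at 5.41, Ifi44 at 4.96, Ly6a at 4.93, the class I gene H2-Q7 at 4.77 and Ccl5 at 4.71. They were followed by Slamf7, Il18bp, Ms4a4c, Nos2, Gm5150 and Slfn1, between 3.87 and 4.49. The lowest was that of Marco, a macrophage scavenger receptor gene, at -5.24 (-7.52 to -3.68), with 436 UMIs in 35 control cells and 3 UMIs in 3 mutant cells. It was followed by the rule gene Mmp9 at -3.50, C1qa at -3.17, Ccnb1ip1 at -2.96 and Slc9b2 at -2.09. Dennd5b, Bbs9, Dkc1, Idh2, H2ax, C1qb and Impdh2 lay between -1.92 and -1.68. Genes with near-identical copies (the Ly6 family, H2-Q7, Ifit1bl1 and Ifit3) are uncertain. So are genes overlapping another on the opposite strand, such as Acp5, Jdp2, Nfatc1, Irf7 and Ccnb1ip1, since use of the strand in counting was not stated.

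Genes tied to the switch from proliferation to differentiation and to the BAF complex were read from fixed lists. Cited2, a transcriptional coregulator, stood at 179 CPM in control and 155 CPM in mutant precursors, a log2 ratio of -0.21 (-0.39 to -0.03), beside 0.46 in the other cells. Rab38, a small GTPase gene, had 20 UMIs in control precursors, 14 of them in 1 cell, and 0 in mutant precursors. Of 23 other BAF genes, 15 passed 20 CPM, none was past 2-fold and the median was -0.20. Smarca4, the ATPase of the complex, gave -0.52 and Arid1b, the paralog of Arid1a, which was below 20 CPM, 0.37 (-0.20 to 0.92). Mitotic genes had a median of -1.07 over the 3 that passed 20 CPM, Birc5, Ccnb2 and Ube2c, which is a remainder under the limit on proliferation UMIs. It was 0.26 when precursors were chosen at 5000 UMIs. Nuclear genes of oxidative phosphorylation had a median of -0.27 over 76 genes, with none past 2-fold.

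Markers of other cell types were summed over the precursors. Of 9 stromal markers, all were detected in control precursors at a summed 79.7 CPM (602 UMIs) and 1 in mutant precursors at 7.66 CPM (15 UMIs), with Sparc, Col1a1 and Col1a2 at 0 in the latter. Only 3 control and 1 mutant precursors had 3 or more stromal UMIs, and without them the ratios of Acp5 and Nfatc1 were -0.68 and -1.41. Of 9 neutrophil markers, 6 were at 0 in control and 3 in mutant precursors, with 36.6 and 38.3 CPM in sum, mostly Mmp8, and Retnlg and Lcn2 at 0 in both. Lymphoid markers summed to 2.91 and 5.10 CPM, and mast cell and basophil markers to 0.53 and 1.53 CPM. Class II antigen presentation genes summed to 49.9 and 279 CPM, with a median log2 ratio of 2.98 over the 3 that passed 20 CPM. That median is partly set by the filter, which a gene could pass through the mutant library alone. H2-Aa and H2-Eb1 were found in 5 and 6 mutant cells, 1 of which held 61.3% and 71.8% of their UMIs, and Flt3, Cd209a and Xcr1, which define dendritic cells, were at 0 in both. Pf4, which macrophages also express, made up nearly all of the erythroid and megakaryocyte sum of 498 and 443 CPM. A doublet score removed 11 of 296 control and 0 of 81 mutant precursors, after which the Acp5 and Nfatc1 ratios were -0.70 and -1.44.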

How the data were processed

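The authors mapped 10x Genomics 3′ (v3.1) reads with Cell Ranger 6.1.0 to GRCm39 and deposited raw UMI counts per gene and barcode, which were used as deposited. The tables listed 32544 genes, of which 31977 matched GENCODE M39. Barcodes with at least 500 genes and at most 10% mitochondrial UMIs were kept, and the rule for precursors was applied to all UMIs. The precursors, gene lists and named genes were chosen with earlier results of these data known. Named genes were fixed OC and pathway genes and the genes with the largest ratios among those of at least 20 CPM. Counts were summed over the cells of a library and divided by their total. With 1 library per genotype no test was made. Sums have exact Poisson, shares exact Clopper-Pearson and ratios exact conditional 95% intervals, which cover counting error only. A log2 ratio used for ranking or list medians had the same small level added to both sides, that of 0.5 UMI at their mean depth. For comparisons across depth each cell was thinned to 5000 UMIs. Doublets were scored against simulated ones and the highest scores removed only as an alternative. Some genes of the lists are not reported here and were left out of them. The scripts were tested on simulated data. Python 3.11.15, numpy 2.4.6, scipy 1.17.1, pandas 2.3.3 and scikit-learn 1.9.0 were used.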

Additional observations from a re-analysis of the deposited data

Results flagged for a closer look

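In these genes the mutant over control log2 ratio was of one sign in precursors and of the other in the remaining non-cycling cells, with 1 library on each side, so the difference was not tested. Among OC genes, the ratio was negative in precursors and positive in other cells for Slc9b2 (-2.09 and 1.01, a difference of -3.11), Acp5 (-0.68 and 1.55, -2.22), Nfatc1 (-1.42 and 0.14, -1.57), Atp6v0d2 (-0.69 and 0.37, -1.06) and Cited2 (-0.21 and 0.46, -0.67). The same held for the dehydrogenase gene Bdh2 (-0.79 and 1.52, -2.31), for Ivns1abp (-1.14 and 0.62, -1.75), for the cell cycle gene Cks2 (-1.02 and 0.38, -1.40) and for Itga4, which encodes an integrin subunit (-1.22 and 0.14, -1.36). These ratios pool all precursors. At 3 to 4 and 5 to 9 UMIs of the rule genes, Acp5 (1.47 and 1.47) and Atp6v0d2 (1.27 and 1.31) were positive. Cited2 gave -0.07 (-0.38 to 0.22) and 0.48 (0.18 to 0.77). Slc9b2 gave 0.78 and -0.19, and Nfatc1 -1.02 and -0.35. The intervals of both Slc9b2 values and of the second Nfatc1 value include no difference.

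The ratio was positive in precursors and negative in other cells for Vcan, the versican gene (0.84 and -1.06, a difference of 1.90). Chemokine genes of this kind were Ccl7 (0.26 and -1.51, 1.77), Ccl6 (0.78 and -0.19, 0.97), Ccl2 (0.59 and -0.19, 0.78) and Ccl9 (0.17 and -0.51, 0.68). The Ccl7 ratio in precursors turned negative without the cell highest in it. The cycling cells over the OC threshold differed between control and mutant in the same direction as the precursors for most of these genes, such as Slc9b2 (27.9 and 9.62 CPM), Acp5 (340 and 275 CPM), Nfatc1 (121 and 73.7 CPM), Atp6v0d2 (85.4 and 41.0 CPM), Bdh2 (79.2 and 54.6 CPM), Itga4 (51.8 and 31.1 CPM) and Ccl2 (324 and 731 CPM), but not for Cks2 (183 and 186 CPM), Ccl7 (83.1 and 77.6 CPM) or Ccl9 (1631 and 1323 CPM).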

How the results depend on the processing

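No paired analysis was possible because each group had 1 library, and for the same reason no replicate could be left out. The cause of a changed value was not tested. The share of non-cycling precursors differed by -3.29 points, and by -2.11 with 5 or more UMIs of the rule genes, -1.06 with 0 and -5.21 with up to 5 proliferation UMIs, -1.25 without Mmp9 and 1.11 with Acp5 added, where it turned round. At 5000 UMIs it differed by -3.06, and by -1.65 at 2000 UMIs, -1.81 with 5 or more and -4.56 with 2 or more UMIs of the rule genes, -1.58 with 0 proliferation UMIs, -1.30 without Mmp9 and -1.36 with proliferation read from all UMIs. Genes at least 2-fold higher than in other cells of both libraries numbered 10, and 24 with precursors chosen at 5000 UMIs, 39 at 5 CPM and 317 with no filter. Those at least 2-fold different between the libraries numbered 521, and 1041 at 5 CPM and 4867 with no filter.

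Without mitochondrial and ribosomal protein genes in the totals, the median log2 ratio was 0.081 for fusion, -0.0055 for RANK signalling, 1.46 for chemokines, -0.42 for oxidative phosphorylation, -0.67 for ribosomal protein and -1.22 for mitochondrially encoded genes. Over all genes it was then -0.20. With precursors chosen at 5000 UMIs it was 1.63 for repressors, 1.13 for macrophage genes, 1.92 for chemokines, 0.26 for mitosis, 0.35 for cyclins and -0.83 for mitochondrially encoded genes, and Ifit1bl1 (over other cells) was at -1.45, Lyz2 at 0.25 and Prdm1 at 0.18. With 5 or more UMIs it was 0.059 for resorption, 0.13 for fusion, 2.58 for interferon, 1.82 for chemokines and -1.25 for mitochondrially encoded genes. With 0 proliferation UMIs it was -0.25 for cyclins, -0.58 for ribosomal protein and -1.42 for mitochondrially encoded genes. At 5 CPM it was 1.29 for chemokines, -0.51 for mitosis and -0.94 for mitochondrially encoded genes, which were at -0.99 with every cell weighted alike. Ccl7 turned to -0.073 with every cell weighted alike, -0.81 with 0 proliferation UMIs and -0.66 without its highest cells.

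In cells over the threshold at 5000 UMIs the ratios depended on the draw, so no direction was read from them for OC genes. Nfatc1 was at -0.47, 0.086 in another draw, 0.21 at 2000 UMIs and -2.10 with proliferation read from all UMIs. In the same order Acp5 was at -1.16, -0.15, 0.14 and -3.11, Atp6v0d2 at -1.57, -0.74, -0.26 and -2.48, Jdp2 at -0.77, -0.10, 0.16 and -2.48, the interferon sum at 1.64, 1.44, 1.70 and 1.76 and the repressor sum at 1.23, 0.52, 0.78 and 1.46. The removal of the mutant cell highest in the rule genes and of the highest cell for each gene, and the reading of proliferation from all UMIs, were chosen after seeing the data. Of the other values for single genes, 504 moved by less than their interval and 138 by more. For ratios between the libraries, a change of sign was counted apart only where the interval of the gene excluded no difference. The 81 mutant precursors limit every value given for them.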
